A study of Mus musculus with 18 samples.

Results

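Endothelial marker genes, 10 in number, were followed across the sorted mammary subpopulations: Pecam1, Cdh5, Emcn, Esam, Vwf, Kdr, Flt1, Tie1, Tek and Eng. They belong to the 19057 genes named by a probe of the array. They were chosen by name, as markers of a cell type that the sort was meant to remove, when values of the same arrays were already known. Their levels are therefore given as a description, with no test. Matching by gene symbol found 16 probes for the 10 genes, of which 14 lay above background on at least 1 array. Each gene is represented by the brighter or brightest of its probes, and its other probes are given where they differ.

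Endothelial cells line blood and lymphatic vessels, and in the mammary gland a capillary bed surrounds the ducts and alveoli within the stroma. Their identity rests on junction proteins that hold the vessel wall together, on tyrosine kinase receptors for the VEGF and angiopoietin growth factors, and on the clotting protein they store. Pecam1 encodes CD31, an adhesion molecule of endothelial junctions, leukocytes and platelets, and was itself one of the antigens used to discard cells in the sort. Cdh5 encodes VE-cadherin, the adherens junction cadherin of endothelium. Emcn encodes the sialomucin endomucin, Esam a tight junction adhesion molecule shared with platelets, and Vwf the von Willebrand factor. Kdr and Flt1 encode VEGF receptors, Tie1 and Tek the angiopoietin receptor pair, and Eng the TGF-beta family co-receptor endoglin, which mesenchymal cells also carry.

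The study profiled female FVB/N mice, with no genetic change or treatment named in the labels and no age given there. Cells depleted of those carrying CD31, CD45 or TER119 were sorted into a stromal fraction (CD29lo CD24-), a MaSC-enriched fraction that contains the mammary stem cells (CD29hi, CD24-expressing, CD61+), luminal progenitor cells (CD29lo CD24+ CD61+) and mature luminal cells (CD29lo CD24+ CD61-). Each sample came from a pool of several mice, and the replicate number of an array is the number of its pool. There were 3 stromal arrays from pools 1, 2 and 3, and 5 arrays each of MaSC-enriched, luminal progenitor and mature luminal cells from pools 1 to 5. The arrays of pools 1 to 3 were hybridized in 1 batch and those of pools 4 and 5 in another, which holds no stromal array. Values are the deposited normalized log2 intensities. The background level of an array was set on 1506 probes for odorant and pheromone receptors, genes not expected in mammary cells. It lay between 5.10 and 5.44 on this scale, and 46.3% to 55.9% of probes were above it. Of the receptor probes themselves, 8.1% to 12.82% were above it.

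A clear signal was given by 9 of the 10 endothelial genes, more than 1 log2 unit above background on at least 1 array. Among the 15 epithelial arrays, every one of these 9 genes had the same 4 arrays at the top: MaSC-enriched replicates 3 and 4 and luminal progenitor replicates 3 and 4. Over all 16319 genes tested, MaSC-enriched replicate 3 was among the 4 highest epithelial arrays for 20.4%, MaSC-enriched replicate 4 for 32.3%, luminal progenitor replicate 3 for 17.2% and luminal progenitor replicate 4 for 37.9%. Among mature luminal arrays, replicate 4 was the highest for Cdh5, Emcn, Esam and Tie1, by less than 1 log2 unit, and replicate 3 was the highest for Vwf alone. The stromal array of pool 3 was the lowest of the 3 stromal arrays for each of the 9 genes.

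Of the junction genes, Cdh5 read 8.77, 8.63 and 7.63 on stromal arrays 1 to 3 and 8.42, 8.67, 11.93, 11.56 and 7.71 on MaSC-enriched arrays 1 to 5. It read 7.18, 6.57, 9.90, 10.73 and 5.93 on luminal progenitor arrays 1 to 5, and on mature luminal arrays 1 to 5 it read 7.88, 7.26, 7.64, 8.42 and 7.47. Replicates 3 and 4 thus stood well above the other MaSC-enriched and luminal progenitor arrays, and the stromal range overlapped that of each epithelial fraction. The means were 8.34 ± 0.62 in stromal cells (SD, n = 3), 9.66 ± 1.94 in MaSC-enriched cells, 8.06 ± 2.12 in luminal progenitors and 7.74 ± 0.45 in mature luminal cells (SD, n = 5 each). In such sorted bulk RNA, fewer cells of a type and less RNA per cell cannot be told apart.

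Pecam1, whose product was sorted against, was above background on all 18 arrays. It read 9.67, 9.69 and 8.21 on stromal arrays 1 to 3 and 9.39, 9.78, 12.67, 11.79 and 7.65 on MaSC-enriched arrays 1 to 5. On luminal progenitor arrays 1 to 5 it read 7.87, 7.73, 10.66, 10.73 and 7.16, against 8.72, 8.08, 8.43, 8.62 and 7.97 on mature luminal arrays 1 to 5. The luminal progenitor arrays outside pools 3 and 4 were thus below all mature luminal arrays, while those of pools 3 and 4 were above all of them. A second Pecam1 probe had the same 4 arrays at the top in another order, with 10.64 and 10.78 on MaSC-enriched replicates 3 and 4 and 9.19 and 10.77 on luminal progenitor replicates 3 and 4, and was lowest on luminal progenitor replicate 5 (5.41). The remaining Pecam1 probe read 7.39 on MaSC-enriched replicate 3 and no more than 5.12 on any mature luminal array.

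**Figure D1:**
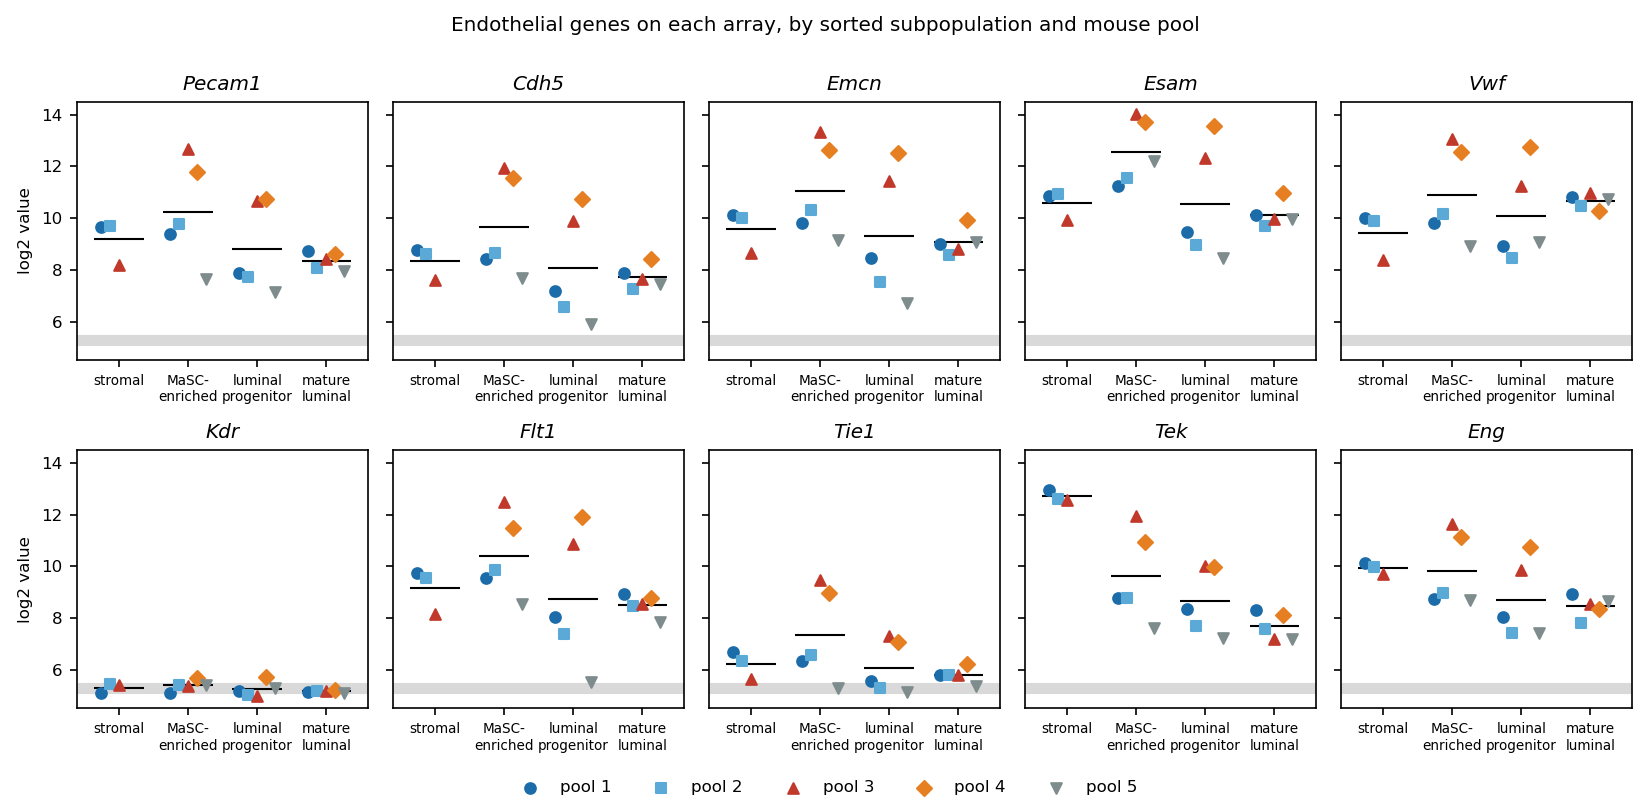
Log2 value of each of the 10 endothelial genes on every array, by sorted subpopulation; symbols and colors give the mouse pool, horizontal lines the mean of a subpopulation, and the gray band the range of background levels (5.10 to 5.44). Red triangles and orange diamonds, pools 3 and 4, sit apart in the MaSC-enriched and luminal progenitor columns and far less so in the mature luminal column, Tek is highest in the stromal column, and Kdr stays near background.

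Emcn gave the same picture, with 13.33 and 12.63 on MaSC-enriched replicates 3 and 4 and 11.42 and 12.53 on luminal progenitor replicates 3 and 4. Its remaining MaSC-enriched arrays read 9.82, 10.30 and 9.16, and its remaining luminal progenitor arrays 8.46, 7.54 and 6.71. Over all arrays Cdh5 and Emcn were each other's nearest member (Pearson's r = 0.991 over 18 arrays, and 0.988 over the 11 epithelial arrays left when those 4 are set aside), a description over arrays that share 5 pools. A second Cdh5 probe read 10.68 and 10.50 on MaSC-enriched replicates 3 and 4, and no more than 7.64 on the other MaSC-enriched arrays.

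Esam differed from the other junction genes in 1 array. It read 10.86, 10.93 and 9.92 on stromal arrays 1 to 3, and 11.23, 11.54, 14.03, 13.73 and 12.22 on MaSC-enriched arrays 1 to 5. Every MaSC-enriched array was thus above every stromal array, and replicate 5, the lowest MaSC-enriched array for the other 8 genes with a clear signal, was higher than replicates 1 and 2 for Esam. On luminal progenitor arrays 1 to 5 Esam read 9.46, 8.95, 12.34, 13.56 and 8.46, and on mature luminal arrays 10.11, 9.70, 9.96, 10.98 and 9.96. Genes of pericytes, the mural cells that wrap capillaries, were also high on MaSC-enriched replicate 5: Des, an intermediate filament gene, read 11.07 there and between 8.03 and 9.01 on the other 4 MaSC-enriched arrays, and Rgs5 read 11.36. Replicate 5 was not alone in this, since the mean log2 value of the 9 pericyte genes was 7.39, 7.38, 8.80, 9.08 and 9.22 on MaSC-enriched arrays 1 to 5. The part of pericyte RNA in the Esam value was not tested.

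Vwf was the member with the highest relative level in mature luminal cells. It read 10.83, 10.48, 10.96, 10.28 and 10.74 on mature luminal arrays 1 to 5, a narrow band, and all 5 lay above the 3 stromal arrays at 10.02, 9.91 and 8.37. On MaSC-enriched arrays 1 to 5 it read 9.80, 10.18, 13.08, 12.55 and 8.91, and on luminal progenitor arrays 1 to 5 it read 8.94, 8.47, 11.24, 12.74 and 9.09. The fitted difference of stromal over mature luminal cells was -1.01 ± 0.55 (SE), and that of MaSC-enriched over mature luminal cells 0.03 ± 0.61 (SE). Of the 9 genes, Vwf was the only one with a negative fitted difference of stromal over mature luminal cells. A second Vwf probe was not above background on any array, from 4.55 to 4.98, so the mature luminal level rests on 1 probe.

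The receptor genes fell into 3 patterns. Flt1, the VEGFR1 gene, followed the junction genes. It read 9.73, 9.56 and 8.17 on stromal arrays 1 to 3, and 9.56, 9.85, 12.49, 11.49 and 8.55 on MaSC-enriched arrays 1 to 5. On luminal progenitor arrays 1 to 5 it read 8.06, 7.40, 10.85, 11.91 and 5.54, the widest range of any member within a fraction (6.37 log2 units), against 8.92, 8.46, 8.56, 8.78 and 7.87 on mature luminal arrays 1 to 5. Tie1, an orphan partner of the angiopoietin receptor, was dimmer: it read 9.47 and 8.99 on MaSC-enriched replicates 3 and 4, 7.31 and 7.09 on luminal progenitor replicates 3 and 4, and no more than 6.69 on any other array. On luminal progenitor replicate 5, at 5.13, it was not above background.

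Tek, the angiopoietin receptor gene also called Tie2, was highest in the stromal fraction. It read 12.96, 12.62 and 12.56 on stromal arrays 1 to 3, and 8.79, 8.79, 11.94, 10.93 and 7.63 on MaSC-enriched arrays 1 to 5. Its luminal progenitor arrays 1 to 5 read 8.34, 7.68, 10.02, 9.97 and 7.22, and its mature luminal arrays 1 to 5 read 8.33, 7.57, 7.19, 8.12 and 7.21. The stromal range did not overlap any epithelial range, and the epithelial ranges overlapped one another. The fitted difference was 3.24 ± 0.52 (SE) for stromal over MaSC-enriched, 4.17 ± 0.49 (SE) for stromal over luminal progenitor and 5.06 ± 0.46 (SE) for stromal over mature luminal cells. Tek was nearest to Pecam1 over the 15 epithelial arrays (r = 0.965, against 0.624 over all 18) and farthest from Vwf (0.761). Over the 11 epithelial arrays left without the 4 high ones, its r to the other members had a median of 0.639 and ran from -0.035 (Vwf) to 0.768 (Pecam1).

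Eng lay between these patterns. It read 10.13, 9.99 and 9.70 on stromal arrays 1 to 3, with a spread (SD 0.22) as small as that of Tek, and 8.73, 8.96, 11.65, 11.14 and 8.71 on MaSC-enriched arrays 1 to 5. On luminal progenitor arrays 1 to 5 it read 8.04, 7.42, 9.87, 10.76 and 7.42, and on mature luminal arrays 1 to 5 it read 8.95, 7.82, 8.55, 8.37 and 8.68. All 3 stromal arrays were above all 5 mature luminal arrays. The fitted difference of stromal over MaSC-enriched cells was 0.38 ± 0.47 (SE) with all arrays, and 1.20 ± 0.23 (SE) when the MaSC-enriched and luminal progenitor arrays of pools 3 and 4 were left out.

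Kdr, the VEGFR2 gene, had no clear signal. Its brighter probe ranged from 4.99 to 5.72 over the 18 arrays and its other probe from 4.62 to 5.02, with no rise on MaSC-enriched replicate 3. These 2 probes therefore give no level for Kdr in any fraction. A second Flt1 probe was likewise near background on most arrays, with 6.48 on MaSC-enriched replicate 3 and 6.81 on luminal progenitor replicate 4 as its highest values.

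By mean level the order was MaSC-enriched, stromal, luminal progenitor, mature luminal for Pecam1, Cdh5, Flt1, Tie1, Emcn and Esam. The order was stromal, MaSC-enriched, luminal progenitor, mature luminal for Tek and Eng, and MaSC-enriched, mature luminal, luminal progenitor, stromal for Vwf. Among neighbors in these orders the array ranges overlapped for all but 2 steps, stromal above MaSC-enriched for Tek and MaSC-enriched above stromal for Esam. The array weights of the fit, which downweight luminal progenitor replicate 4 most (0.171), move the fitted differences away from plain differences of these means. The first order depends on the MaSC-enriched and luminal progenitor arrays of pools 3 and 4. Without them the luminal progenitor mean was below the mature luminal mean for each of its genes (Cdh5 6.56 against 7.74). The MaSC-enriched mean was then below the stromal mean for Pecam1, Cdh5 and Tie1, but not for Flt1, Emcn and Esam.

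The promoters of 6 of the 10 genes were in the RefSeq table used, on GRCm38.p6, and a window of 300 bases (250 before and 50 after the start) is shown for 3 members that moved together and for Tek, which departed from them in the stroma. Pecam1, Cdh5, Vwf and Esam had no entry. The windows are chr3:137340828-137341127 on the plus strand for Emcn, chr5:147725962-147726261 on the minus strand for Flt1, chr4:118489800-118490099 on the minus strand for Tie1 and chr4:94739039-94739338 on the plus strand for Tek. Capitals mark AGGAAG or its reverse complement CTTCCT, a core sequence bound by ETS-type factors, on either strand.
Emcn: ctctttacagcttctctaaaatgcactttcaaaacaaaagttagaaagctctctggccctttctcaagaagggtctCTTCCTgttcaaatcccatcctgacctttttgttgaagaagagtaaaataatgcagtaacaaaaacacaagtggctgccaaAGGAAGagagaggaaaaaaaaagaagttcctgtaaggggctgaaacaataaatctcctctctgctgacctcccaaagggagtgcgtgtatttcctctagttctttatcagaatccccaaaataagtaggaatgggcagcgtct
Flt1: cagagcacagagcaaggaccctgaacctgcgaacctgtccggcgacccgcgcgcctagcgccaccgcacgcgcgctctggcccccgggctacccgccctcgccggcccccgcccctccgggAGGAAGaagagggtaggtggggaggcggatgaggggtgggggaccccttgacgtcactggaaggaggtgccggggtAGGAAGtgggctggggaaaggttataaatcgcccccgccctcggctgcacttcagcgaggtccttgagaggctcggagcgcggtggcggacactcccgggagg
Tie1: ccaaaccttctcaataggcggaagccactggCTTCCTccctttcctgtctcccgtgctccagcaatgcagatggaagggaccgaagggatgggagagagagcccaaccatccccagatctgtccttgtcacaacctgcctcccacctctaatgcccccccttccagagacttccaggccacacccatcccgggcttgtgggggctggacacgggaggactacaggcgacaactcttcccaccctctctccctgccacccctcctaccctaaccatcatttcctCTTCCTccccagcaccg
Tek: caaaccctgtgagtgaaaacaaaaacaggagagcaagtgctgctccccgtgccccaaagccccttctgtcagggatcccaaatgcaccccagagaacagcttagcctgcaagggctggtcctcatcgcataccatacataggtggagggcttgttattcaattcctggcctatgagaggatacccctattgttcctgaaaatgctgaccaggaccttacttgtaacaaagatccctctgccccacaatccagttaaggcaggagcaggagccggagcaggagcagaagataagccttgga
The sequence occurred in 4 of the 6 windows, with 2 matches each in Emcn, Flt1, Tie1 and Eng and none in Tek and Kdr. It occurred in 35.4% of all 32851 windows of the same length in the table. A match is a description of these letters and no evidence of binding.

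To set genes of different brightness side by side, each gene was expressed as percent of its own signal on MaSC-enriched replicate 3, its highest epithelial array, after the background median of each array was subtracted on the linear scale. On luminal progenitor replicate 3 the 9 genes lay between 19.4% (Tie1) and 31.7% (Flt1), a span of 1.63-fold with a median of 26.4%. They lay between 49.0% and 81.1% on MaSC-enriched replicate 4, between 7.85% and 14.2% on MaSC-enriched replicate 1 and between 9.79% and 17.7% on MaSC-enriched replicate 2. On these arrays the 9 genes therefore lay within 2-fold of one another, although their level ranged over about an order of magnitude. Spans were wider on luminal progenitor replicates 1 and 2 (2.49-fold and 2.92-fold) and on the mature luminal arrays (2.5-fold to 9.38-fold). Luminal progenitor replicate 4 ran from 15.7% (Tie1) to 79.0% (Vwf), a span of 5.03-fold. Luminal progenitor replicate 5, the array closest to background, was the least even of the epithelial arrays, from 0.336% (Flt1) to 6.01% (Vwf), a span of 17.9-fold. That rank depends on the subtraction. With no background subtracted this array ran from 0.807% (Flt1) to 6.3% (Vwf). MaSC-enriched replicate 5 then spanned more, from 3.07% (Pecam1) to 28.6% (Esam).

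**Figure D2:**
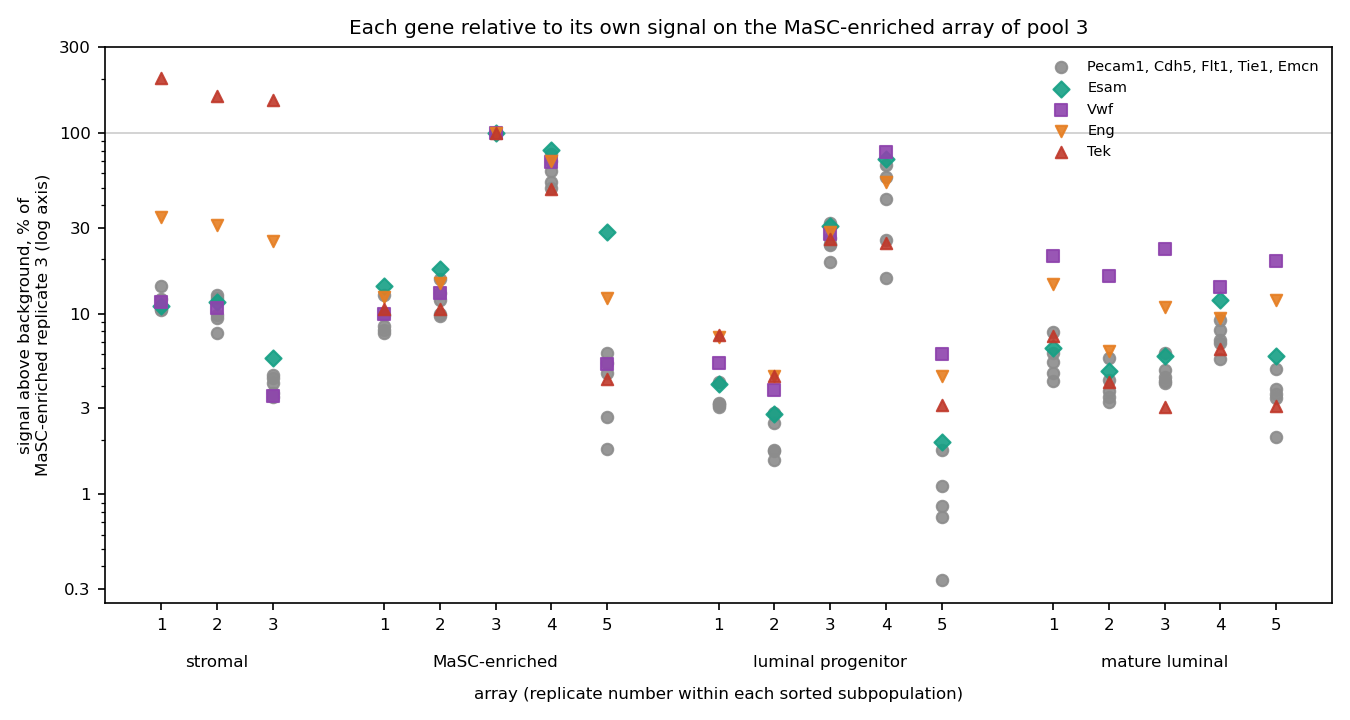
Signal above background of each of the 9 measured genes on every array, as percent of the same gene on MaSC-enriched replicate 3 (log axis), with arrays grouped by sorted subpopulation. The 9 points span less than 2-fold on MaSC-enriched replicates 1, 2 and 4 and luminal progenitor replicate 3, and 17.9-fold on luminal progenitor replicate 5; Tek (153% to 203%) and Eng (25.2% to 34.3%) stand above the rest on the stromal arrays, Vwf (14.1% to 22.8%) on the mature luminal arrays, and Esam (28.5%) on MaSC-enriched replicate 5.

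Other departures lay with single genes in a fraction or on an array. On the stromal arrays Pecam1, Cdh5, Flt1, Tie1 and Emcn (a grouping made after their values were seen) lay between 10.5% and 14.3% on replicate 1, between 7.82% and 12.7% on replicate 2 and between 3.46% and 4.56% on replicate 3. Tek on the same arrays was at 203%, 160% and 153%, and Eng at 34.3%, 31.0% and 25.2%. The 5 genes thus fell together on stromal replicate 3 while Tek and Eng did so far less. On mature luminal arrays 1 to 5 Vwf was at 20.8%, 16.3%, 22.8%, 14.1% and 19.5%, above the highest of the 5 genes on each array (7.96%, 5.66%, 6.10%, 9.23% and 4.98%). Esam was at 28.5% on MaSC-enriched replicate 5, where the 5 genes lay between 1.78% and 6.07%.

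Against the mean of the stromal arrays in place of MaSC-enriched replicate 3, the median over the 9 genes averaged 425% ± 458 on MaSC-enriched, 180% ± 226 on luminal progenitor and 58.7% ± 21.2 on mature luminal arrays (SD, n = 5 each). The MaSC-enriched medians were 105%, 138%, 1060%, 763% and 57.3% on replicates 1 to 5, so that replicates 1, 2 and 5 lay around the stromal mean. Without the arrays of pools 3 and 4 the luminal progenitor average was 25.9% ± 12.4 (SD, n = 3), so that its place above or below the mature luminal average rests on 2 arrays.

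The same arrays were high for a wider set of 49 endothelial genes listed from general knowledge, of which 47 had a probe and 45 were above background on some array. So were 16319 of the 19057 genes named by a probe. This list too was written with earlier results of these data known, so it is not independent of them. MaSC-enriched replicates 3 and 4 and luminal progenitor replicates 3 and 4 were among the 4 highest epithelial arrays for 39, 35, 34 and 39 of these 45 genes, and no other epithelial array was for more than 6. Cldn5, the claudin of endothelial tight junctions, read 13.20 and 12.91 on MaSC-enriched replicates 3 and 4 and 11.65 and 13.13 on luminal progenitor replicates 3 and 4. On the other arrays of those fractions it read between 8.70 and 9.94 and between 6.14 and 8.12.

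The genes whose level followed Cdh5 most closely over all 18 arrays were Sox17 (r = 0.988), an endothelial transcription factor gene, Rasip1 (0.985), which acts in vessel lumen formation, Cd93 (0.984), Gpihbp1 (0.984), the capillary anchor of lipoprotein lipase, and C1qtnf9 (0.981). Over the 15 epithelial arrays they were Sox17 (0.989), Gpihbp1 (0.987), Rasip1 (0.987), Cd93 (0.986) and Plvap (0.984), which encodes the diaphragm protein of fenestrated endothelium. These correlations are given without a test, since the arrays share pools and the 4 high arrays set most of the variance.

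**Figure D3:**
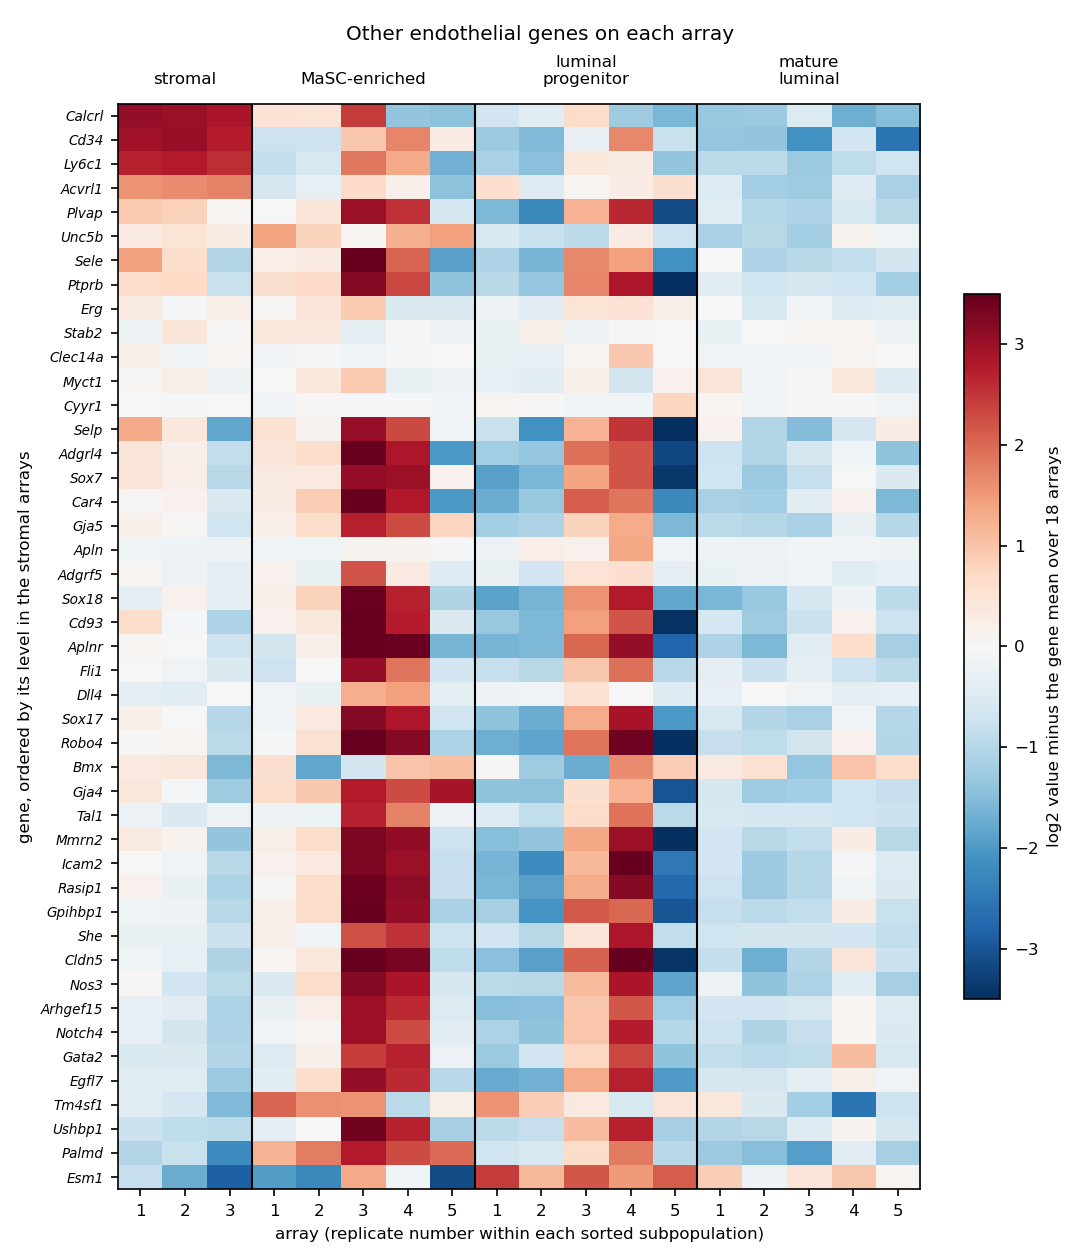
Log2 value of each of the 45 other endothelial genes on every array after subtraction of the gene's mean over 18 arrays (red, above the mean; blue, below), with arrays grouped by sorted subpopulation and genes ordered by their stromal level. Most rows are red on MaSC-enriched and luminal progenitor replicates 3 and 4, whereas Calcrl, Cd34, Ly6c1 and Acvrl1 at the top are reddest on the stromal arrays and Esm1 at the bottom on the luminal progenitor arrays.

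Differences between fractions were tested for the wider set with limma over all 16319 genes and all 6 contrasts (called at a false discovery rate of 0.05 with a fold change above 1.5). In stromal over MaSC-enriched cells 4 of the 45 genes were higher and 5 lower, against 14.3% and 16.1% of all genes tested, and the median difference of the set was -0.97 log2 (-0.03 over all genes). The stromal rises were in Cd34 (2.98 ± 0.36 SE, adjusted p = 2.8e-06), a sialomucin of endothelium and of mesenchymal progenitors, Ly6c1 (2.84 ± 0.42, adjusted p = 2.45e-05), Calcrl (2.57 ± 0.40, adjusted p = 4.57e-05), the adrenomedullin receptor gene, and Acvrl1 (1.95 ± 0.27, adjusted p = 1.28e-05), the receptor that pairs with endoglin. The largest fall was in Palmd (-2.99 ± 0.37, adjusted p = 3.33e-06), a palmdelphin gene that read between 10.47 and 12.06 on every MaSC-enriched array.

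In stromal over luminal progenitor cells 6 genes were higher and 2 lower, against 16.5% and 19.8% of all genes, with Cd34 (3.89 ± 0.35 SE, adjusted p = 4.62e-08), Ly6c1 (3.51 ± 0.40, adjusted p = 1.05e-06) and Calcrl (3.36 ± 0.38, adjusted p = 9.93e-07) up. Esm1, which encodes the proteoglycan endocan, was down (-3.60 ± 0.52, adjusted p = 2.24e-05). Esm1 read between 10.33 and 11.61 on all luminal progenitor arrays, against 8.35, 7.44 and 6.31 on the stromal arrays, with no split by pool among the luminal progenitor arrays. In stromal over mature luminal cells 6 genes were higher and 1, Esm1, lower, against 16.6% and 21.7% of all genes, led by Cd34 (4.66 ± 0.32, adjusted p = 1.48e-09), Calcrl (4.10 ± 0.35, adjusted p = 2.85e-08), Ly6c1 (3.72 ± 0.37, adjusted p = 1.99e-07) and Acvrl1 (2.59 ± 0.24, adjusted p = 7.35e-08). The 4 stromal genes varied little among stromal arrays: Acvrl1 read 8.96, 9.06 and 9.14 and Calcrl 9.29, 9.23 and 9.07, including replicate 3, where Cdh5 was low.

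Leaving out the MaSC-enriched and luminal progenitor arrays of pools 3 and 4, an alternative added after their values were seen, raised the count for stromal over luminal progenitor cells to 28 higher and 2 lower (16.9% and 19.6% of all genes), and that for stromal over mature luminal cells to 11 higher and 1 lower (16.8% and 21.8%). With pools 3 and 4 left out altogether these counts were 29 higher and 2 lower (16.7% and 19.5%), and 17 higher and 1 lower (16.3% and 21.3%). Since the arrays were left out for their endothelial values, these counts describe the remaining arrays and add no independent support. Within the first hybridization batch alone, the only one with stromal arrays, 4 genes were higher and 2 lower over MaSC-enriched (14.3% and 15.7% of all genes), 5 and 2 over luminal progenitor (16.2% and 19.4%) and 5 and 1 over mature luminal cells (16.5% and 21.4%).

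Among the epithelial fractions, MaSC-enriched over luminal progenitor cells gave 11 genes higher and 1 lower, against 11.3% and 10.9% of all genes, with a median of 1.32 log2 (-0.02 over all genes). The largest were Esm1 (-3.36 ± 0.58 SE, adjusted p = 0.00014), Gja4 (2.66 ± 0.57, adjusted p = 0.00114), an arterial connexin gene, Sox7 (2.14 ± 0.69, adjusted p = 0.0226) and Palmd (2.13 ± 0.39, adjusted p = 0.000268). MaSC-enriched over mature luminal cells gave 23 genes higher and 1 lower, against 13.7% and 13.8%, with Palmd (3.30 ± 0.37, adjusted p = 9.34e-07), Gja4 (2.63 ± 0.54, adjusted p = 0.000782), Sox18 (2.16 ± 0.60, adjusted p = 0.00889) and Cldn5 (2.08 ± 0.75, adjusted p = 0.0428) the largest rises. Gja4, like Esam, read high on MaSC-enriched replicate 5 (10.76), beside 10.64 and 10.15 on replicates 3 and 4 and 8.47 and 8.81 on replicates 1 and 2. Luminal progenitor over mature luminal cells gave 4 higher and 0 lower, against 6.42% and 4.67% of all genes: Esm1 (1.62 ± 0.53, adjusted p = 0.0248), Tm4sf1 (1.49 ± 0.36, adjusted p = 0.00367), Palmd (1.16 ± 0.36, adjusted p = 0.0172) and Acvrl1 (1.15 ± 0.26, adjusted p = 0.00179).

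Without the 4 high arrays, MaSC-enriched over luminal progenitor cells gave 25 genes higher and 2 lower (12.6% and 12.7% of all genes) and MaSC-enriched over mature luminal cells 13 higher and 1 lower (13.6% and 14.5%). Luminal progenitor over mature luminal cells turned to 3 higher and 9 lower (7.06% and 6.31% of all genes), with a median of -0.36 log2 in place of 0.19. The fitted differences of the members moved the same way: Cdh5 in luminal progenitor over mature luminal cells was -0.81 ± 0.27 (SE) without those arrays and 0.10 ± 0.61 (SE) with them. The size and, for this pair, the direction of the endothelial difference between luminal fractions thus depended on whether those arrays were kept. Within the first batch alone, 3 genes were higher and 1 lower in MaSC-enriched over luminal progenitor cells (9.87% and 9.91% of all genes), 9 and 0 in MaSC-enriched over mature luminal cells (12.6% and 12.8%) and 3 and 0 in luminal progenitor over mature luminal cells (6.47% and 4.38%). Within the second batch alone, with 2 arrays a fraction, limma called 0 genes in each of these contrasts. An unadjusted limma p below 0.05 with a fold change over 1.5 was reached by 4, 6 and 1 of the 45. These were 2 higher and 2 lower, 5 and 1, and 1 and 0. The share of all genes at that cut was not computed, so no reading is given to these counts.

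Markers of other cell types moved on the same arrays. All 10 fibroblast genes had MaSC-enriched replicates 3 and 4 among their 4 highest epithelial arrays, whereas luminal progenitor replicates 3 and 4 were for 5 and 1 of them. Col1a1, the main fibrillar collagen gene, read 10.57 and 11.51 there, between 7.45 and 9.13 on the other MaSC-enriched arrays, and 13.77, 13.86 and 14.05 on the stromal arrays. Over the fibroblast list the summed signal was 171503 to 197882 on stromal, 22164 to 54054 on MaSC-enriched, 13252 to 24499 on luminal progenitor and 13918 to 22302 on mature luminal arrays (linear intensity above background). Over the 9 endothelial genes it was 9159 to 15073 on stromal, 6669 to 59515 on MaSC-enriched, 1363 to 34699 on luminal progenitor and 3655 to 5864 on mature luminal arrays. All 3 stromal arrays were thus above every epithelial array for the fibroblast list. For the endothelial genes they were above every epithelial array other than MaSC-enriched and luminal progenitor replicates 3 and 4, with Tek, the member highest in stroma, included in the sum. For every stromal array the place above MaSC-enriched replicate 2 rests on Tek. Tek read 12.96, 12.62 and 12.56 on stromal arrays 1 to 3 and 8.79 on MaSC-enriched replicate 2. Pecam1, Flt1, Vwf, Emcn and Esam read higher on MaSC-enriched replicate 2 than on any stromal array, whereas Cdh5, Tie1, Tek and Eng did not. Each of the 9 genes but Tek and Eng read lower on stromal replicate 3 than on MaSC-enriched replicates 1 and 2.

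Epithelial markers of the other compartment moved too. Elf5, a transcription factor gene of luminal progenitors, read 11.84 and 11.48 on MaSC-enriched replicates 3 and 4, and 9.30, 9.16 and 7.57 on replicates 1, 2 and 5. Krt14, a basal keratin gene, read 13.03 and 13.43 on luminal progenitor replicates 3 and 4, and 11.53, 10.72 and 10.86 on replicates 1, 2 and 5. On stromal replicate 3, the stromal array where each of the 9 endothelial genes was lowest, Krt14 read 10.06, against 12.74 and 12.68 on stromal replicates 1 and 2. Over the luminal list the mean log2 value was 11.10 and 10.55 on MaSC-enriched replicates 3 and 4 and 9.75, 9.61 and 9.18 on replicates 1, 2 and 5. The part of any of these cells in the endothelial values was not tested.

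Blood cell markers differed among themselves. Ptprc, which encodes the sort antigen CD45, was above background on 1 luminal progenitor and 1 mature luminal array, at 5.51 and 5.50, and on no other array. Laptm5, a leukocyte gene, read 10.87 and 11.01 on MaSC-enriched replicates 3 and 4 and 10.85 and 10.29 on luminal progenitor replicates 3 and 4, above the other arrays of both fractions, and also 10.11 and 10.15 on mature luminal replicates 3 and 4. The 11 leukocyte genes summed to 1551 to 1783 on stromal, 605 to 3236 on MaSC-enriched, 687 to 3076 on luminal progenitor and 882 to 2224 on mature luminal arrays. The hemoglobin gene Hba-a1 read 13.05 and 12.59 on MaSC-enriched replicates 3 and 4 and no more than 10.55 on the other MaSC-enriched arrays, but 11.57 to 12.87 on all mature luminal arrays. Platelets also store von Willebrand factor. The 5 platelet and megakaryocyte genes summed to 466 to 846 on stromal, 166 to 689 on MaSC-enriched, 161 to 637 on luminal progenitor and 151 to 452 on mature luminal arrays. On single mature luminal arrays 2 to 4 of the 5 genes were above background, Gp1bb on none. The part of blood cells in the endothelial values, Vwf included, was not tested.

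**Figure D4:**
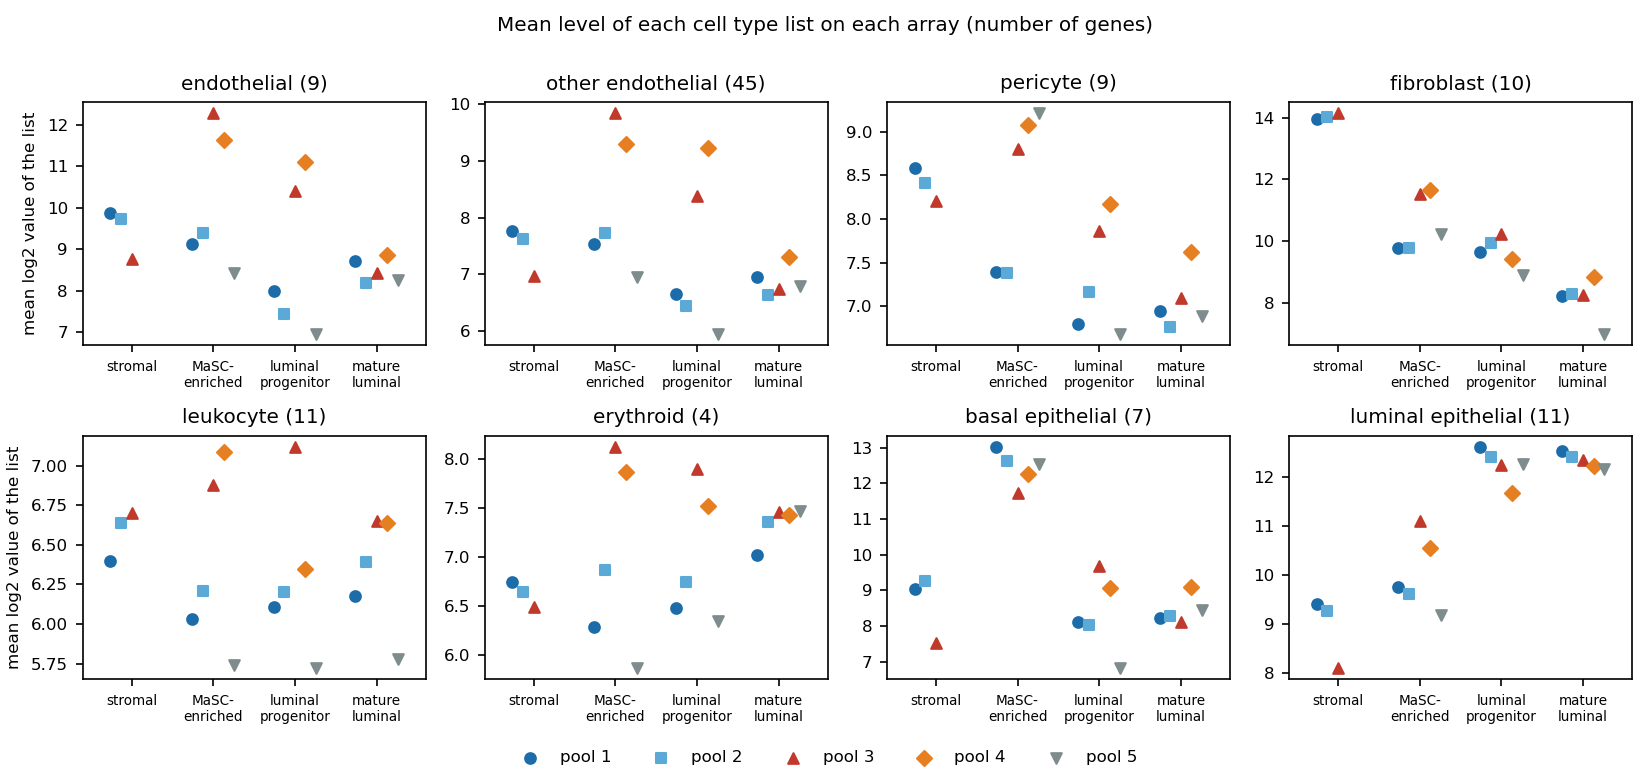
Mean log2 value of each cell type list on every array, by sorted subpopulation and mouse pool (number of genes in parentheses; each panel has its own axis). In the MaSC-enriched and luminal progenitor columns, pools 3 and 4 sit above pools 1, 2 and 5 for both endothelial lists and also for leukocyte and erythroid genes, as they do for luminal genes in MaSC-enriched and for basal and pericyte genes in luminal progenitor cells. MaSC-enriched pool 5 joins them for pericyte genes (9.22), and the stromal arrays are far above the rest only for fibroblast genes.

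The ligands of these receptors were mostly highest in the stromal and MaSC-enriched fractions. Of 9 ligand genes above background (the VEGF and angiopoietin families and Bmp10, a ligand of the endoglin receptor complex), 4 were higher and 1 lower in stromal over MaSC-enriched cells, 6 and 1 in stromal over luminal progenitor cells and 7 and 0 in stromal over mature luminal cells, at the same shares of all genes as above. Vegfd, a ligand of the lymphatic VEGF receptor, read 10.73, 10.21 and 10.70 on the stromal arrays and no more than 7.27 on any epithelial array (stromal over mature luminal 4.96 ± 0.26 SE, adjusted p = 3.74e-11). Vegfc read between 10.15 and 11.02 on all stromal and MaSC-enriched arrays, against 7.44 to 9.43 on luminal progenitor and 6.82 to 8.16 on mature luminal arrays (MaSC-enriched over mature luminal 3.17 ± 0.22 SE, adjusted p = 1.77e-09). Pgf, the placental growth factor gene and a Flt1 ligand, was highest in MaSC-enriched cells, at 8.75, 8.86, 8.13, 8.99 and 8.84 on replicates 1 to 5, and MaSC-enriched over luminal progenitor cells differed by 3.27 ± 0.22 (SE, adjusted p = 1.17e-09).

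The 2 main Tek ligands went opposite ways among the epithelial fractions. Angpt1, the activating ligand, read 9.61, 8.74, 8.23, 6.77 and 8.32 on luminal progenitor arrays 1 to 5, and 6.11, 5.49, 7.09, 5.69 and 6.54 on MaSC-enriched arrays 1 to 5 (MaSC-enriched over luminal progenitor -2.62 ± 0.33 SE, adjusted p = 4.25e-06). Angpt2, the context-dependent antagonist made by endothelial and other vessel cells, read 11.65, 11.65 and 12.62 on the stromal arrays and 8.66, 8.72, 11.61, 11.03 and 10.58 on MaSC-enriched arrays 1 to 5. On luminal progenitor arrays 1 to 5 Angpt2 read 6.96, 6.19, 9.84, 10.83 and 5.93, so that it rose on the same arrays as the receptors (stromal over luminal progenitor 4.37 ± 0.54 SE, adjusted p = 2.95e-06). Vegfa, the main Kdr and Flt1 ligand, read 12.73, 12.59 and 12.37 on the stromal arrays and 13.00, 12.17, 11.05, 11.67 and 12.77 on MaSC-enriched arrays 1 to 5, with replicates 3 and 4 the lowest. Stromal over luminal progenitor cells differed by 1.24 ± 0.21 (SE, adjusted p = 0.000115).

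Of 8 co-receptor and lymphatic endothelial genes, Nrp1, the neuropilin that binds VEGF, read 12.63, 12.87 and 12.75 on the stromal arrays and 9.75, 9.82, 12.60, 12.40 and 10.11 on MaSC-enriched arrays 1 to 5. It was 8.55, 8.57, 11.11, 11.88 and 7.50 on luminal progenitor arrays 1 to 5, the same split by pool as for Eng, and stromal over luminal progenitor cells differed by 3.57 ± 0.47 (SE, adjusted p = 6.65e-06). Pdpn, a podoplanin gene of lymphatic endothelium that basal epithelium and fibroblasts also express, read 13.37 to 13.62 on stromal and 13.13 to 14.10 on MaSC-enriched arrays, with MaSC-enriched replicate 3 the lowest of its fraction, against 8.35 to 9.83 on mature luminal arrays (MaSC-enriched over mature luminal 5.15 ± 0.28 SE, adjusted p = 4.53e-11). Flt4, the lymphatic VEGF receptor gene, read between 4.72 and 5.54 over all arrays and was above background on 2 arrays of each fraction, never by a clear margin. Lyve1, a hyaluronan receptor of lymphatic endothelium, read 8.18 on MaSC-enriched replicate 3 and 8.42 on luminal progenitor replicate 3, against 6.76 and 5.49 on replicate 4 of the same fractions, so that pools 3 and 4 did not move together for it.

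**Figure D5:**
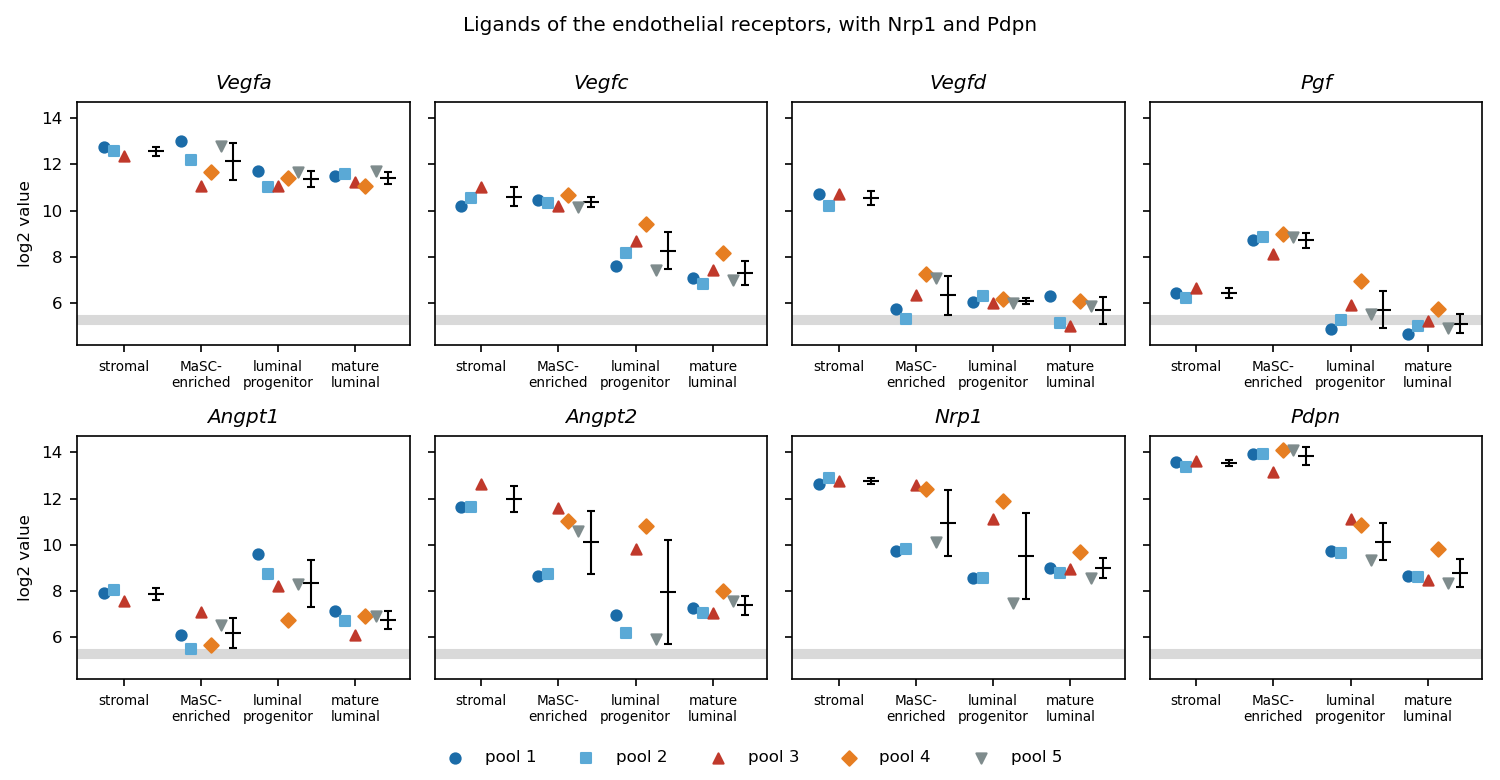
Log2 value of 6 ligand genes, Nrp1 and Pdpn on every array, by sorted subpopulation and mouse pool, with the mean and SD of each subpopulation beside its points and the range of background levels in gray. Nrp1 shows the split of pools 3 and 4 from the rest in MaSC-enriched and luminal progenitor cells and Angpt2 in luminal progenitor cells (MaSC-enriched pool 5 reads 10.58), whereas Vegfc and Pgf hold a narrow band on the MaSC-enriched arrays.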

How the data were processed

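RNA of 18 samples was hybridized to Illumina mouse bead arrays, 1 sample per array. The log2 values are those the authors deposited, for which neqc (a normexp correction followed by quantile scaling, both informed by the control beads) had been run on BeadStudio output. A further table of unprocessed intensities has 36 columns that match no sample by name and was not used. Gene names came from the platform annotation (34885 of 45281 probes had 1 symbol). The background threshold was the upper 1% point of a normal curve with the median and median absolute deviation of the receptor probes. More than 1% of the receptor probes themselves lay above it, from 8.1% to 12.82% on single arrays. A value just above it is therefore weak evidence of signal. Of all probes, 35585 exceeded it on some array, among them 660 of the 1506 receptor probes. The brightest of the 35585 stood for each gene. Arrays carry no read depth, so their number limits the precision.

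Models were fitted in limma 3.58.1 (R 4.3.3) with 1 mean per subpopulation, array weights and mouse pool as a random block (correlation 0.263), with Benjamini-Hochberg adjustment over the 6 contrasts together. The pairing by pool comes from the labels, and residuals of the same pool had a median correlation of 0.414 over 24 pairs. The procedure was tested on simulated data. The members and gene lists were chosen with earlier results of these data known. Genes named were the members, up to 4 called genes per list and contrast with the largest differences, the defining markers and the 5 genes most like Cdh5. Des, Acvrl1 in the first contrast, Vegfc in MaSC-enriched cells, Flt4, Lyve1, Nrp2 and Ccl21a were named after their values were seen. Alternatives were other filters, weights, blocks, batches, adjustments and probe summaries, and each array left out.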

Additional observations from a re-analysis of the deposited data

Results flagged for a closer look

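In groups of 5 arrays, a single array standing apart from the other 4 (Dixon's ratio above 0.71) was found in 17 of 228 gene and subpopulation pairs among the endothelial, ligand and co-receptor genes and the named markers. Chance flags about 1 in 20. None of the 30 pairs of the 10 members was among them. The ratio looks for a single array, so it can miss replicates 3 and 4 where both are high, as in MaSC-enriched and luminal progenitor cells. Mature luminal replicate 4 was the highest array for Mmrn2 (9.38), Gpihbp1 (9.12), Arhgef15 (7.73), Gja5 (6.47), Gata2 (7.51), Rgs5 (9.01), Pdpn (9.83) and the basal keratin gene Krt14 (13.76, next 11.89). For Cdh5 the same array read 8.42, the highest of its fraction, beside 7.88 on the next. MaSC-enriched replicate 3 was apart for Adgrf5 (7.55), Lyve1 (8.18), and, as the lowest array, Pgf (8.13) and Pdpn (13.13). Luminal progenitor replicate 4 was apart for Apln (6.12) and Ptprc (5.51), luminal progenitor replicate 3 for Mmrn1 (6.99) and luminal progenitor replicate 5 for Cyyr1 (5.44, near background). Mature luminal replicate 5 was highest for Prox1 (7.83).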

How the results depend on the processing

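The counts below are of the other endothelial genes called in either direction, with 45 tested in the main fit and 47 with no filter. Where no share of all genes is given above for a setting, it was not computed. Such a count may move with the calls over all genes, and is not read as particular to endothelial genes. For MaSC-enriched over luminal progenitor cells the main count of 12 became 6 with no filter, 5 with no array weights, 5 with no replicate block, 6 with BeadChip as the block, 4 in batch 1 alone, 0 in batch 2 alone, 27 without the 4 high arrays and 29 without pools 3 and 4. For MaSC-enriched over mature luminal cells the main count of 24 became 13 with no filter, 11 with no array weights, 10 with no replicate block, 10 with BeadChip as the block, 9 in batch 1 alone, 0 in batch 2 alone and 14 without the 4 high arrays. For luminal progenitor over mature luminal cells 4 became 0 in batch 2 alone, 12 without the 4 high arrays and 13 without pools 3 and 4. For stromal over luminal progenitor cells 8 became 30 and 31, and for stromal over mature luminal cells 7 became 12 and 18, without the 4 high arrays and without pools 3 and 4. The cause of these moves was not tested. The other 50 alternatives that leave out no single array kept these counts within 1.5 times. With pool as a fixed replicate block the counts for MaSC-enriched over luminal progenitor and over mature luminal cells were 13 and 18.

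Leaving out 1 array at a time gave 6 to 17 for stromal over MaSC-enriched, 7 to 14 for stromal over luminal progenitor, 6 to 10 for stromal over mature luminal, 4 to 29 for MaSC-enriched over luminal progenitor, 9 to 31 for MaSC-enriched over mature luminal and 2 to 4 for luminal progenitor over mature luminal cells. The largest moves came without MaSC-enriched replicate 1 (17 for stromal over MaSC-enriched and 23 for MaSC-enriched over luminal progenitor cells), MaSC-enriched replicate 5 (14 for stromal over MaSC-enriched cells), luminal progenitor replicate 3 (14 for stromal over luminal progenitor and 29 for MaSC-enriched over luminal progenitor cells) and MaSC-enriched replicates 3 or 4 (9 or 10 for MaSC-enriched over mature luminal and 6 or 5 for MaSC-enriched over luminal progenitor cells). Luminal progenitor replicates 1, 2 or 5 gave 4, 6 or 5 for MaSC-enriched over luminal progenitor cells, and mature luminal replicates 2 or 3 gave 11 each for MaSC-enriched over mature luminal and 2 each for luminal progenitor over mature luminal cells.

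The fitted difference of stromal cells minus the mean of the epithelial fractions stayed within 1 SD of the array spread for each member under every alternative tried. It was 4.16 for Tek (3.93 to 4.36 without single arrays) and 1.20 for Eng, but 0.25 for Cdh5, which became -0.09 with no array weights, -0.28 or -0.29 without stromal replicate 1 or 2 and 0.86 without the 4 high arrays, so that its sign is not settled. Leaving out single arrays also took the difference through 0 for Pecam1 (-0.33 to 0.82), Flt1 (-0.43 to 0.70), Tie1 (-0.47 to 0.35), Emcn (-0.41 to 0.74) and Esam (-0.57 to 0.33), but not for Vwf (-1.34 to -0.16). The relative signal of mature luminal arrays is 5.53% in place of 58.7% where MaSC-enriched replicate 3 replaces the stromal mean as the base, by construction. Tie1 and luminal progenitor replicate 5 lie closest to background and have the least certain values.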

Other observations

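Some endothelial genes separated the 4 high arrays from one another. Calcrl read 8.66 on MaSC-enriched replicate 3 but 4.82 on MaSC-enriched replicate 4, and 6.84 and 4.95 on luminal progenitor replicates 3 and 4. Nrp2, the neuropilin of lymphatic and venous endothelium, read 9.32 on MaSC-enriched replicate 3 and 5.39 on MaSC-enriched replicate 4, with 6.60 and 5.89 on luminal progenitor replicates 3 and 4. Both genes were lower on both MaSC-enriched arrays of the second hybridization batch than on each of the 3 of the first, so that pool and batch cannot be told apart there. Tm4sf1, a membrane protein gene of endothelium and epithelium, had its lowest MaSC-enriched value on replicate 4 (7.90, against 9.03 to 10.87 on the other 4) and its lowest mature luminal value there too (6.26).

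Ccl21a, a chemokine gene of lymphatic endothelium with near-identical copies in the mouse genome whose signal 1 probe may combine, read 10.79, 9.77 and 10.27 on MaSC-enriched replicates 3, 4 and 5 and 6.91 on replicates 1 and 2. It was higher in MaSC-enriched over mature luminal cells by 2.70 ± 0.69 (SE, adjusted p = 0.00502 in limma) and in luminal progenitor over mature luminal cells by 2.14 ± 0.66 (SE, adjusted p = 0.0186).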
